A study of Mus musculus with 12 samples.

Results

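Described here are 33 genes that mark lymphocytes and natural killer (NK) cells, in whole liver of mice aged 2 weeks. They were taken by name: 3 genes of all leukocytes, 9 of T cells, 6 of B cell precursors, 6 of B cells, 7 of NK and other cytotoxic cells, and 2 genes of lymphoid cytokine signalling. The array holds 19938 genes with a probe set of their own, and 32 of the 33 are among them, each with 1 probe set. The T cell kinase Lck is the member unnamed in the annotation used. The 4 genotypes were Stat3Fl/Fl, whose Stat3 gene carries loxP sites but is intact; Stat3Δhc, with Stat3 deleted; Stat3Fl/FlMdr2-/-, the floxed gene on a knockout of Mdr2; and Stat3Δhc Mdr2-/-, which carries both defects. All 12 livers thus carry the floxed Stat3 allele or its deleted form, and the labels name neither the Cre driver nor the strain. Values of whole liver do not show which cells carry the deletion, so Stat3 need not be lost in the lymphocytes. Each genotype has 3 arrays, lettered A to C, and separate animals are not stated in the labels, so p-values measure the spread between these arrays, which may be technical.

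Mdr2, encoded by Abcb4, moves phospholipid into bile, and mice without it develop bile duct inflammation and scarring. T cells read antigen through a receptor coupled to the CD3 chains, B cells through a surface antibody coupled to CD79a and CD79b, and NK and killer T cells store perforin and granzymes in granules. The liver makes blood cells before birth and for a short time after it, so young liver can hold B cell precursors, which pair their first antibody chain with a surrogate light chain, beside mature lymphocytes.

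The values are log2 signals after robust multi-array averaging (RMA). Arrays of 1 genotype correlated at 0.98 to 0.991 over all genes. Stat3 signal lay at 7.69 to 8.12 in the 6 arrays labelled as deleted and at 9.19 to 9.54 in the other 6, and Abcb4 at 8.87 to 9.36 in the 6 knockout arrays against 9.999 to 10.28. The source name field of the labels swaps the genotypes on the knockout, and the Stat3 signal followed the titles, which were used here. Xist was high (11.27 to 11.34) in all 3 Stat3Fl/FlMdr2-/- arrays and in array A of Stat3Δhc Mdr2-/-, and the other 8 arrays showed Y-linked transcripts instead. Sex pattern and Mdr2 genotype therefore cannot be told apart in floxed liver. The pattern is also unbalanced between floxed and deleted liver on the knockout, and between Stat3Δhc and Stat3Δhc Mdr2-/-. Calls in those comparisons carry this limit as well. Only Stat3Δhc Mdr2-/- holds both patterns, so a covariate for the sex pattern, used below, rests on its array A against B and C.

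Lymphocyte and NK genes were dim in this tissue. The 40th percentile of all gene values ran from 5.81 to 6.07 between arrays, and 10 of the 32 genes lay below it on all 12 arrays, 19 on at least 7 arrays, and 4 on none (Ptprc, Coro1a, Cd37 and Cd79b). As a second guide, the 95th percentile of 1027 olfactory receptor genes, which liver is not known to use, ran from 5.18 to 5.78. By that guide 16 members lay above it on all 12 arrays and 5 (Cd3d, Rag1, Rag2, Klrb1c and Ncr1) below it on all 12. Probe sets differ in brightness for the same amount of RNA, so an order of genes by signal is not an order by transcript number. A gene was tested where its value passed the array's 40th percentile over all probe sets (5.46 to 5.63) in at least 3 arrays: 23 members passed and 9 did not (Cd3d, Cd4, Cd5, Rag1, Rag2, Ms4a1, Gzma, Klrb1c and Ncr1). Because the tissue is a mixture, fewer cells of a type and less RNA per cell cannot be told apart in any value here.

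**Figure D1:**
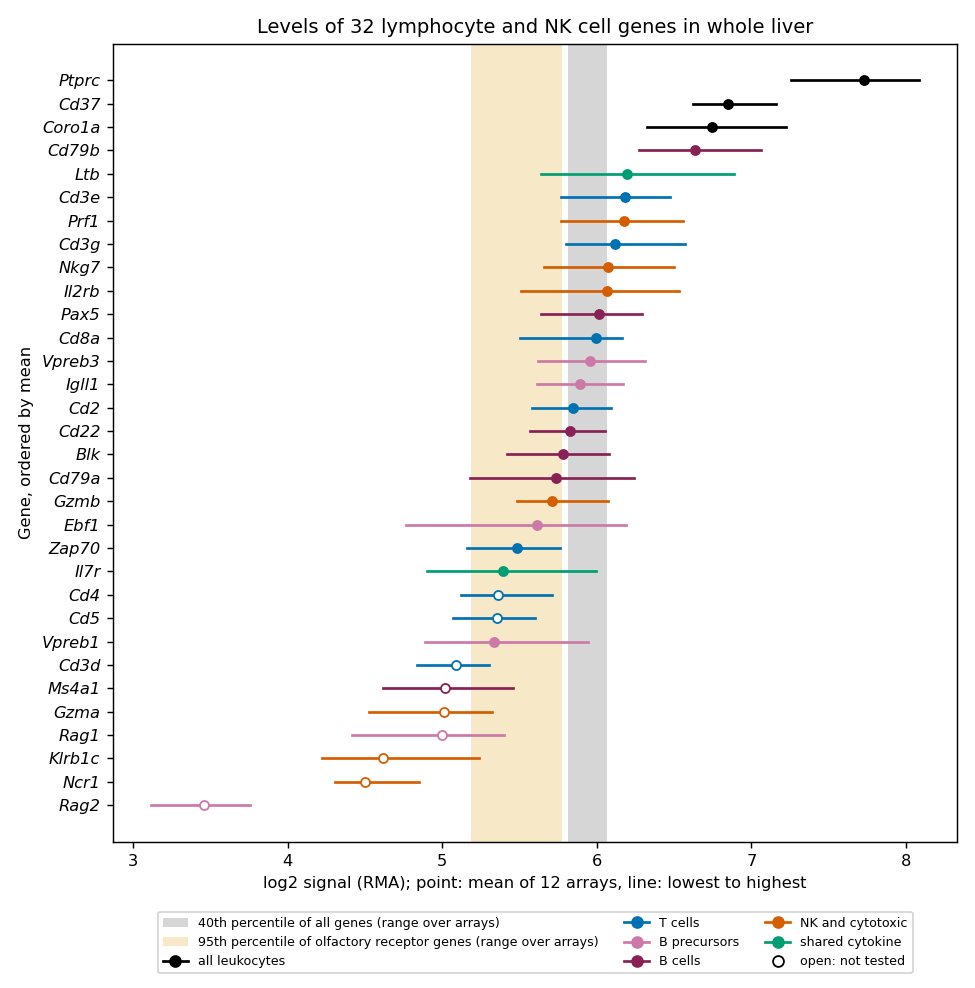
Log2 signal of the 32 members found, as the mean of 12 arrays (point) with the lowest and highest array (line), coloured by role; open points were not tested. The bands mark the range over arrays of the 40th percentile of all genes (5.81 to 6.07) and of the 95th percentile of olfactory receptor genes (5.18 to 5.78). Ptprc, Cd37, Coro1a and Cd79b lie to the right of both bands, while Rag2, at a mean of 3.46, lies left of both.

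Deleting Stat3 in liver with intact Mdr2 left no member past the threshold, an adjusted p under 0.05 in limma's moderated test with Benjamini-Hochberg adjustment over all 13977 genes tested. The count was 0 of 23, where 2.58% of all genes passed, 1.51% upward and 1.07% downward. At an unadjusted p under 0.05 there were 10 of 23 members, all with lower values in Stat3Δhc, and 2286 of all 13977 genes. Every one of the 23 differences lay below 0, from -0.47 for Cd79a to -0.15 for Vpreb1 with a median of -0.29, while 51.5% of all genes tested lay below 0 with a median of -0.01. With the 9 untested members added, 31 of 32 differences lay below 0 (median -0.26), the exception being Ms4a1. In 10 of 23 the 3 Stat3Δhc arrays all lay below the 3 Stat3Fl/Fl arrays, which 10.8% of all genes did, and 14.3% of all genes lay wholly above. The mean over the 23 members was 5.94, 6.20 and 6.22 in Stat3Fl/Fl arrays A, B and C and 5.86, 5.86 and 5.78 in Stat3Δhc, so the Stat3Δhc arrays were the 3 lowest of all 12.

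Array A of Stat3Fl/Fl stood nearer to the Stat3Δhc arrays than its 2 partners did, and it was the lowest of the floxed arrays for 19 of the 23 members. Without it 3 members were called lower in Stat3Δhc: Cd3g (-0.56, adjusted p = 0.031), Ebf1 (-0.65, 0.0453) and Cd79b (-0.50, 0.0189). Without array C of Stat3Δhc Mdr2-/-, Vpreb3 was called (-0.39, 0.0377). Beside the lymphoid genes, 12 of 13 macrophage genes and 9 of 10 granulocyte genes had lower values in Stat3Δhc, with medians of -0.29 and -0.38 and none called. Dendritic, plasma cell and erythroid genes had medians of -0.03, -0.01 and -0.10, also with none called. Of 13 cell cycle genes all had lower values (median -0.64) and 4 fell: Aurkb, Ccna2, Mcm5 and Plk1. In the same array A of Stat3Fl/Fl the macrophage genes averaged 8.38 against 8.82 and 8.92, and the granulocyte genes 5.66 against 6.08 and 6.05. The part of these cell types and of the cell cycle genes in the lymphoid values was not tested.

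**Figure D2:**
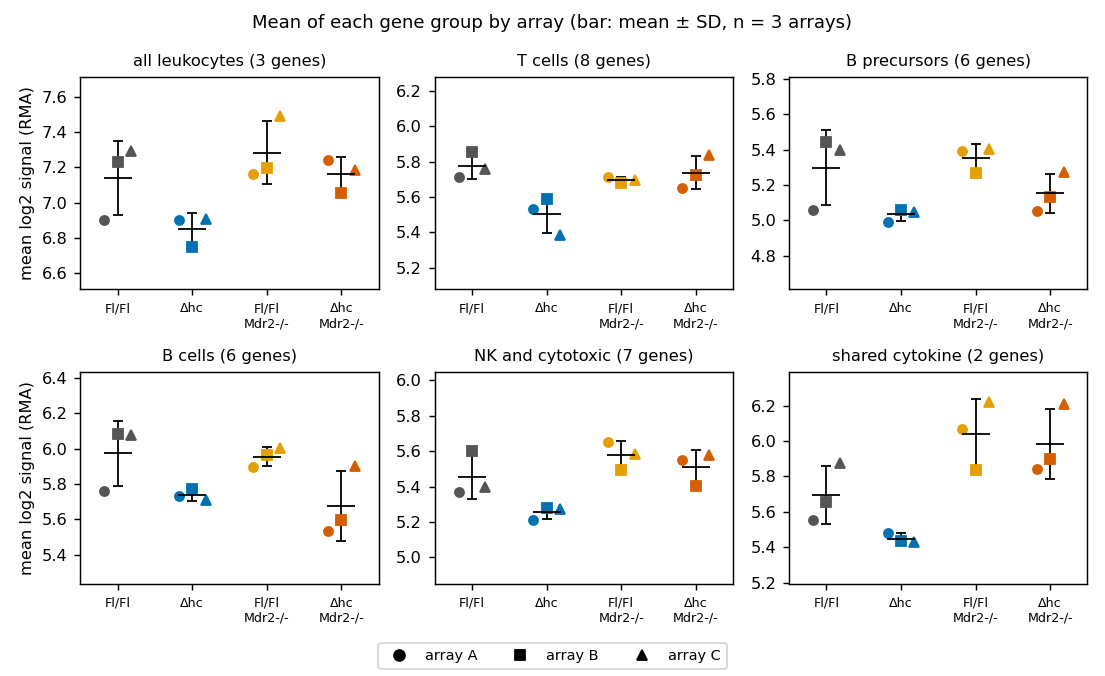
Mean log2 signal of the members of each role, per array, with each genotype's 3 arrays as points and bars for their mean and SD. For the NK and cytotoxic genes the 3 Stat3Δhc arrays, at 5.21, 5.28 and 5.28, lie below all 9 other arrays; for the B cell genes Stat3Δhc Mdr2-/- spreads from 5.53 to 5.90.

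On the Mdr2 knockout the same deletion gave a mixed picture, with 1 of 23 members called (4.35%), against 5.77% of all genes (1.87% up and 3.90% down). The called gene was Ebf1, which fell. After cyclic loess scaling the share of upward calls among all genes rose from 261 of 806 to 466 of 910, and the members called were then Ebf1 and Il7r, both lower. The members' median was -0.18, with 15 differences below 0 and 8 above, where 54.4% of all genes lay below 0 and the olfactory receptor genes had a median of 0.12. Without array A of Stat3Δhc Mdr2-/- the members' median was -0.10. Values without overlap were lower in 6 members (17.7% of all genes) and higher in 2 (10.9%).

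The deletion's effect with and without the knockout was then compared directly, as a difference of differences. It passed for 0 of 23 members by limma, where 0.0715% of all genes passed (0.0143% upward and 0.0572% downward). At an unadjusted p under 0.05 there were 7 of 23 members, all with a positive difference (Cd3e, Cd8a, Zap70, Vpreb3, Nkg7, Prf1 and Ltb), and 2360 of all 13977 genes. The median difference was 0.08 with 17 of 23 above 0, while 55.7% of all genes lay below 0 and the olfactory receptor genes had a median of 0.15. Leaving out array C of Stat3Fl/Fl gave a members' median of 0.00996, and leaving out its array A gave 0.246, the lowest and highest of the 12 such fits. By role the medians were 0.45 for T cell, 0.26 for B precursor, 0.19 for shared cytokine, 0.15 for all-leukocyte, 0.14 for NK and cytotoxic and 0.01 for B cell genes, and the difference between roles was not tested. The standard error of such a difference is larger than that of a single effect, 0.19 against 0.14 as the members' median.

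Loss of Mdr2 in floxed liver raised 1 of 23 members, the cytokine receptor gene Il7r, against 12.8% of all genes called (7.12% up and 5.65% down). The median was 0.05 with 16 differences above 0, and 50.8% of all genes lay below 0. Its sign rests on array A of Stat3Fl/Fl, without which the median was -0.07. Values without overlap were higher in 3 members (18.2% of all genes) and lower in 1 (15.1%).

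Loss of Mdr2 in Stat3Δhc liver raised 5 of 23 members (21.7%) and lowered none, against 17.4% of all genes called, 6.90% up and 10.5% down. The 5 were Coro1a, Cd3e, Nkg7, Prf1 and Ltb, from 4 of the 6 roles. The median was 0.25 with 21 of 23 differences above 0, the exceptions being Ebf1 (-0.41) and Cd79b (-0.11), and 53.2% of all genes lay below 0. Values without overlap were higher in 7 members (14.9% of all genes) and lower in 1 (22.3%). The median was 0.165 after cyclic loess, 0.15 without array C of Stat3Δhc Mdr2-/- and 0.164 without array B of Stat3Δhc. The olfactory receptor genes also lay higher in this comparison, by a median of 0.16. These comparisons share arrays, since the Stat3Δhc group, the lowest of the 4, enters both this one and the deletion without the knockout, so the values are set side by side and not counted as separate evidence.

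**Figure D3:**
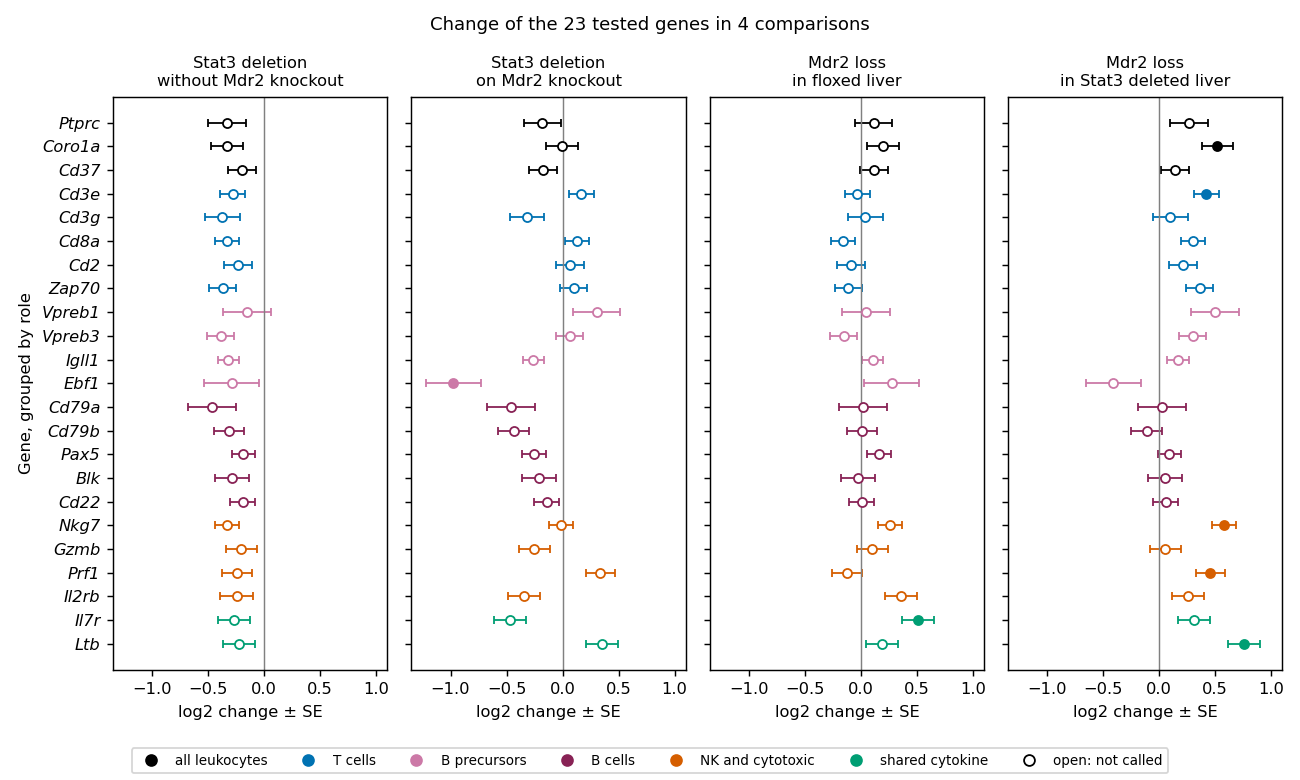
Log2 difference of each of the 23 tested members in the 4 pairwise comparisons, with its standard error; filled points passed an adjusted p under 0.05. Without the knockout every point for Stat3 deletion lies left of 0, and the 7 filled points are Ebf1, Il7r, Coro1a, Cd3e, Nkg7, Prf1 and Ltb.

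Of the genes shared by all leukocytes, Coro1a, an actin-binding protein that lymphocytes need to survive and move, rose with Mdr2 loss in Stat3Δhc liver. Its log2 signal was 6.39, 6.32 and 6.49 in Stat3Δhc and 7.02, 6.90 and 6.85 in Stat3Δhc Mdr2-/-. All 3 double-defect arrays lay above all 3 Stat3Δhc arrays, a difference of 0.52 ± 0.14 (SE) or 1.43-fold (limma, adjusted p = 0.0255). In floxed liver it read 6.43, 6.91 and 6.86, and 6.73, 6.84 and 7.22 on the knockout, which overlap (0.20, adjusted p = 0.421). The Coro1a call was lost without Stat3Δhc array A (0.0718), B (0.0616) or C (0.0525), and without Stat3Δhc Mdr2-/- array A (0.0605) or B (0.0504). It was lost too when the sex pattern entered as a covariate (0.0604). In this comparison that fit gives the same difference as leaving out array A of Stat3Δhc Mdr2-/-. Ptprc, which encodes the phosphatase CD45 on every white blood cell, read 7.44, 7.88 and 8.08 in Stat3Fl/Fl and 7.57, 7.25 and 7.59 in Stat3Δhc. On the knockout it read 7.78, 7.89 and 8.08 in floxed and 8.001, 7.64 and 7.56 in deleted liver, and the groups overlap in each of the 4 pairwise comparisons. The tetraspanin gene Cd37 stayed between 6.62 and 7.16 on all 12 arrays, with no call.

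Among T cell genes, Cd3e, a signalling chain of the T cell receptor complex, rose with Mdr2 loss in Stat3Δhc liver. It read 5.95, 6.12 and 5.77 in Stat3Δhc and 6.21, 6.41 and 6.48 in Stat3Δhc Mdr2-/-, without overlap. The difference was 0.42 ± 0.11 (SE) or 1.34-fold (limma, adjusted p = 0.0228). In floxed liver it read 6.22, 6.26 and 6.20, and 6.28, 6.30 and 6.004 on the knockout, so the arrays overlap and the difference was -0.03 (adjusted p = 0.894). The Cd3e call was lost without Stat3Δhc array A (0.0638) or C (0.107), without Stat3Δhc Mdr2-/- array B (0.0606) or C (0.0788), and in a fit of only the 2 groups (0.0561). Groups by source name gave no call either (0.135), but they put Stat3Fl/FlMdr2-/- in place of Stat3Δhc Mdr2-/-. That is a different comparison.

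The other T cell genes tested were Cd3g, Cd8a, Cd2 and Zap70. Cd8a, the co-receptor of killer T cells, read 6.08, 6.14 and 6.16 in Stat3Fl/Fl and 5.94, 5.93 and 5.50 in Stat3Δhc. All Stat3Δhc arrays were lower, with a difference of -0.33 (limma, unadjusted p = 0.00858, adjusted p = 0.124). On the knockout it read 5.96, 5.98 and 5.96 in floxed and 6.01, 6.16 and 6.10 in deleted liver, now wholly higher in the deleted group (0.13, adjusted p = 0.439). Cd3g, a partner chain of Cd3e, was lower with Stat3 deletion by a similar amount without and with the knockout (-0.37 and -0.32, adjusted p = 0.249 and 0.201), and overlapped both times. Zap70, the kinase that relays the receptor signal, lay below the 40th percentile on all 12 arrays and was higher by 0.36 with Mdr2 loss in Stat3Δhc liver (adjusted p = 0.0532). Without array A of Stat3Δhc Mdr2-/-, the array of that group with high Xist, the Zap70 difference was 0.50 and called (0.00852), and so was that of Vpreb1 (0.68, 0.0482). Both genes lay below the olfactory receptor guide on all 3 Stat3Δhc arrays, so these are differences against background, and Vpreb1 entered the test through 3 arrays, 2 of them in the higher group. Cd3d, Cd4 and Cd5 stayed too dim to test, with means over 12 arrays of 5.09, 5.36 and 5.35.

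In the NK and cytotoxic group, Nkg7, a membrane protein of cytotoxic granules, and Prf1, which encodes the pore-forming perforin, rose with Mdr2 loss in Stat3Δhc liver. Nkg7 read 5.66, 5.72 and 5.72 in Stat3Δhc and 6.30, 6.18 and 6.35 in Stat3Δhc Mdr2-/-. All 3 Stat3Δhc arrays were below their array's 40th percentile of gene values and above the olfactory receptor guide, and the groups did not overlap. The difference was 0.58 ± 0.10 (SE, limma, adjusted p = 0.00288). The call held under each of the 21 other settings run, with adjusted p from 0.00107 to 0.0159. Of these, the sex covariate and leaving out array A of Stat3Δhc Mdr2-/- give the same difference. Groups by source name put Stat3Fl/FlMdr2-/- in place of Stat3Δhc Mdr2-/-. In floxed liver Nkg7 read 6.02, 5.97 and 6.10, and 6.50, 6.32 and 6.05 on the knockout, which overlap (0.26, adjusted p = 0.134). Without array C of Stat3Fl/FlMdr2-/- that difference was 0.38 and called (0.0297).

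Prf1 read 5.98, 6.17 and 5.77 in Stat3Δhc and 6.20, 6.56 and 6.53 in Stat3Δhc Mdr2-/-, with the highest Stat3Δhc array just under the lowest double-defect array. The difference was 0.46 ± 0.13 (SE) or 1.37-fold (limma, adjusted p = 0.0334). In floxed liver it read 6.28, 6.22 and 6.15, and 6.32, 5.91 and 6.05 on the knockout (-0.12, adjusted p = 0.611), which overlap. The Prf1 call was lost without Stat3Δhc array A (0.0833) or C (0.145), and without Stat3Δhc Mdr2-/- array B (0.0948) or C (0.106). It was also lost in a fit of only the 2 groups (0.0668) and with the letter as a block (0.0571). Groups by source name, which put Stat3Fl/FlMdr2-/- in place of Stat3Δhc Mdr2-/-, gave 0.12 (limma, adjusted p = 0.591).

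Gzmb, a granzyme that triggers death of target cells, read 5.49, 6.07 and 5.76 in Stat3Fl/Fl, 5.51, 5.60 and 5.59 in Stat3Δhc, 6.02, 5.76 and 5.84 in Stat3Fl/FlMdr2-/- and 5.83, 5.49 and 5.54 in Stat3Δhc Mdr2-/-. Its groups overlap in all 4 pairwise comparisons. Il2rb, the interleukin-2 and interleukin-15 receptor chain of NK cells, read 5.96, 6.15 and 5.996 in Stat3Fl/Fl and 6.53, 6.31 and 6.34 in Stat3Fl/FlMdr2-/-. The knockout arrays were all higher, but the difference of 0.35 did not pass (limma, adjusted p = 0.132). In a fit of only these 2 groups it passed (0.0431), as the 1 member called there. The NK receptor genes Klrb1c (NK1.1) and Ncr1 (NKp46), which define NK cells among these members, averaged 4.62 and 4.50 and lay below both background guides on all 12 arrays. Gzma, the other granzyme, averaged 5.01 and was below the 40th percentile on every array. At background the signals of Klrb1c and Ncr1 cannot show whether NK cells changed. Which cells the rise of Nkg7 and Prf1 came from was not tested.

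**Figure D4:**
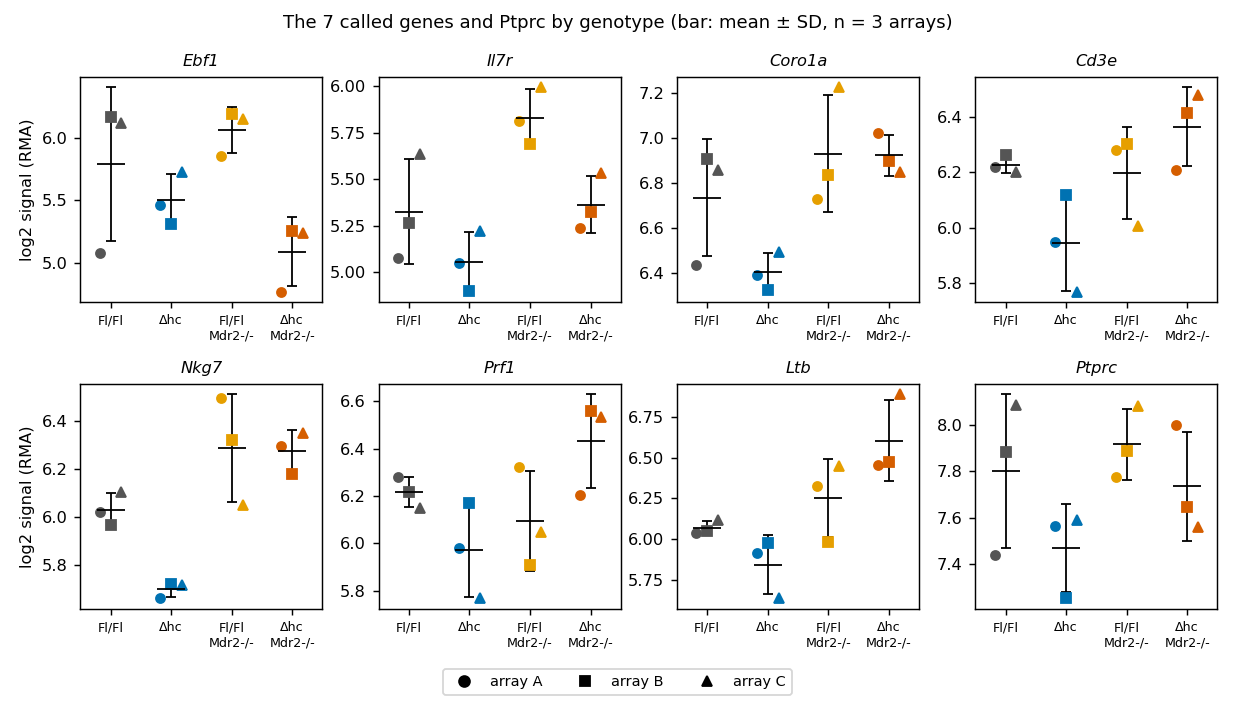
Log2 signal per array of the 7 members called in any comparison and of Ptprc, in the 4 genotypes, with bars for the mean and SD of 3 arrays. Coro1a, Cd3e, Nkg7, Prf1 and Ltb are higher in all 3 Stat3Δhc Mdr2-/- arrays than in all 3 Stat3Δhc arrays; the mean of Ebf1 is lowest in Stat3Δhc Mdr2-/-, and that of Il7r highest in Stat3Fl/FlMdr2-/-.

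Ltb, whose product lymphotoxin beta is a membrane cytokine that builds lymphoid tissue, gave the largest rise of the 23 members with Mdr2 loss in Stat3Δhc liver. It read 5.92, 5.98 and 5.64 in Stat3Δhc and 6.45, 6.47 and 6.89 in Stat3Δhc Mdr2-/-, without overlap. The difference was 0.76 ± 0.14 (SE) or 1.69-fold (limma, adjusted p = 0.00349). The call held under 20 of the 21 other settings run, of which the sex covariate again repeats leaving out array A of Stat3Δhc Mdr2-/-. The exception was groups taken from the source name (0.0591), which put Stat3Fl/FlMdr2-/- in place of Stat3Δhc Mdr2-/-. In floxed liver it read 6.04, 6.05 and 6.12, and 6.33, 5.98 and 6.45 on the knockout, which overlap (0.19, adjusted p = 0.456). On the knockout all deleted arrays lay above all floxed ones, by 0.35, which did not pass (adjusted p = 0.136).

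Il7r, the interleukin-7 receptor chain that B and T cell precursors depend on, rose with Mdr2 loss in floxed liver. It read 5.08, 5.26 and 5.64 in Stat3Fl/Fl and 5.81, 5.69 and 5.995 in Stat3Fl/FlMdr2-/-. The knockout arrays were all higher, though by little over array C of Stat3Fl/Fl, and the difference was 0.51 ± 0.14 (SE; limma, adjusted p = 0.0337). All 3 Stat3Fl/Fl arrays lay below their array's 40th percentile of gene values and 2 below the olfactory receptor guide. The low side of this difference is thus near background. The gene entered the test through 4 arrays, 3 of them from the group where it was high, so its presence among the 23 is not independent of this difference. It read 5.05, 4.90 and 5.22 in Stat3Δhc and 5.24, 5.32 and 5.53 in Stat3Δhc Mdr2-/-, all below the 40th percentile, with all double-defect arrays higher (0.31, adjusted p = 0.142). The Il7r call was lost without Stat3Fl/Fl array A (0.128) or B (0.105), and without Stat3Fl/FlMdr2-/- array A (0.075) or C (0.131). It was also lost without Stat3Δhc array A (0.0502) and in a fit of only the 2 groups (0.0541). Groups by source name, which put Stat3Δhc Mdr2-/- in place of Stat3Fl/FlMdr2-/-, gave an Il7r difference of 0.04 (limma, adjusted p = 0.881). Adding the sex covariate gave an Il7r difference of 0.70 ± 0.26 (SE) with Mdr2 loss in floxed liver, and the call was lost. The sex pattern differs wholly between the 2 floxed groups, and the covariate rests on array A of Stat3Δhc Mdr2-/- against B and C. That fit therefore cannot tell sex pattern from Mdr2 loss for Il7r.

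The B cell precursor genes include Vpreb1, Vpreb3 and Igll1, of the surrogate light chain and its relatives, and Ebf1, a transcription factor that sets up the B cell programme. Because Ebf1 is the called member here, and Vpreb1, Igll1 and the B cell gene Cd79a are known targets of its product, the 250 bases before the start sites of these 3 genes and Vpreb3 are printed 5′ to 3′ on the gene's strand, from RefSeq on GRCm38.p6. Capitals mark matches, on either strand, to CCCNNGGG, which is its own reverse complement and resembles the core that EBF1 binds, and to the E box CAGNTG, read as CANCTG on the other strand. The windows are chr16:16869256-16869505 (minus strand) for Vpreb1, chr10:75948050-75948299 (plus) for Vpreb3, chr16:16863986-16864235 (minus) for Igll1 and chr7:24897247-24897496 (plus) for Cd79a.
Vpreb1: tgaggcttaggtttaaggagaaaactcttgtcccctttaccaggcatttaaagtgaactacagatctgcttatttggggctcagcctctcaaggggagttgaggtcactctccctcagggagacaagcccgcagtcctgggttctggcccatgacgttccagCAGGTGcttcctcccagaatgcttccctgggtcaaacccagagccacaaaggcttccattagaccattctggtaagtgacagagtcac
Vpreb3: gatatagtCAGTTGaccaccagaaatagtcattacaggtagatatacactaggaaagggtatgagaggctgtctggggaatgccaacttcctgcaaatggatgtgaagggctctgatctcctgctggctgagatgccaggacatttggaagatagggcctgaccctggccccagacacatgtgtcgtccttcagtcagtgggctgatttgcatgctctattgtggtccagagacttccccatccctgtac
Igll1: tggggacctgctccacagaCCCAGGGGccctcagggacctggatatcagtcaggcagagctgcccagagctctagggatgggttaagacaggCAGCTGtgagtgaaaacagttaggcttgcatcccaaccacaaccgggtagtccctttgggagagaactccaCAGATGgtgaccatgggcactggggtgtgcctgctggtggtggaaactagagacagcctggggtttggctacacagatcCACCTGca
Cd79a: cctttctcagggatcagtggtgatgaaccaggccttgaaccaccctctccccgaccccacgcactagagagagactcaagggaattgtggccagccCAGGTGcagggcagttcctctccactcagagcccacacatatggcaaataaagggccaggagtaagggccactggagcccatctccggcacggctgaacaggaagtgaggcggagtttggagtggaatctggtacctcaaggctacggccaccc

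Only Igll1 of these 4 held a CCCNNGGG match, CCCAGGGG at 231 to 224 bases before the start. Igll1 also held 3 E box matches, and Vpreb1, Vpreb3 and Cd79a 1 each. Of all 32851 windows of 250 bases, 11.8% held CCCNNGGG and 44.8% held CAGNTG. For the 27 members with an entry there were 34 windows, of which 5 (14.7%) held the first and 24 (70.6%) the second. A match describes letters in a window and is not a binding site. Only exact matches were searched, so a window without one may still hold a site of another form.

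Ebf1 fell with Stat3 deletion on the knockout. It read 5.85, 6.19 and 6.15 in Stat3Fl/FlMdr2-/- and 4.77, 5.26 and 5.24 in Stat3Δhc Mdr2-/-. All deleted arrays lay below all floxed ones, and below the olfactory receptor guide of their own arrays (5.43, 5.53 and 5.78), so the low side is background and no fold is given. The fitted difference was -0.98 ± 0.25 (SE; limma, adjusted p = 0.0378). Without the knockout the arrays read 5.08, 6.17 and 6.12 in Stat3Fl/Fl and 5.46, 5.31 and 5.73 in Stat3Δhc, which overlap through array A of Stat3Fl/Fl (-0.29, adjusted p = 0.627).

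The Ebf1 call on the knockout was lost without any 1 of the 6 knockout arrays. The adjusted p was 0.0521, 0.115 and 0.104 without Stat3Fl/FlMdr2-/- array A, B or C, and 0.0641, 0.0679 and 0.0633 without Stat3Δhc Mdr2-/- array A, B or C. It was also lost without Stat3Δhc array A (0.0573). The call was lost as well with the sex covariate, where the Ebf1 difference was -1.30 ± 0.33 (SE). That covariate rests on array A of Stat3Δhc Mdr2-/- against B and C, so it cannot decide whether sex pattern accounts for the fall. Over the 12 fits that each leave out 1 array the difference stayed between -1.08 and -0.82.

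Igll1, the constant part of the surrogate light chain, read 5.86, 5.93 and 6.17 in Stat3Fl/Fl and 5.61, 5.62 and 5.76 in Stat3Δhc. On the knockout it read 6.04, 6.05 and 6.17 in floxed and 5.73, 5.88 and 5.88 in deleted liver. The deleted arrays were wholly lower both times, with differences of -0.32 (limma, adjusted p = 0.0969) and -0.26 (adjusted p = 0.11), and neither passed. Vpreb3 was also wholly lower in Stat3Δhc, at 5.72, 5.84 and 5.62 against 5.995, 6.26 and 6.09 (-0.39, adjusted p = 0.106). On the knockout Vpreb3 read 5.93, 6.02 and 5.94 in floxed and 5.93, 5.84 and 6.31 in deleted liver, which overlap (0.06, adjusted p = 0.745). Vpreb1 passed the filter in exactly 3 arrays, 2 of them Stat3Δhc Mdr2-/-, and was not called. The recombinase genes Rag1 and Rag2, which cut antibody and receptor genes, averaged 5.001 and 3.46 and lay below both guides on all 12 arrays.

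The 5 B cell genes tested all had lower values with Stat3 deletion in both settings, with medians of -0.29 without and -0.25 on the knockout and none called. Cd79b, a signalling chain of the B cell receptor and the brightest B cell signal, read 6.45, 6.94 and 7.06 in Stat3Fl/Fl and 6.53, 6.46 and 6.52 in Stat3Δhc, which overlap through array A. On the knockout it read 6.75, 6.74 and 7.004 in floxed and 6.28, 6.48 and 6.42 in deleted liver, wholly lower in the latter. That difference was -0.44 ± 0.14 (SE; limma, adjusted p = 0.0734), and it was called (0.0229) once array A of Stat3Fl/Fl was left out. Cd79a, its partner chain, read 5.55, 6.24 and 6.08 in Stat3Fl/Fl and 5.39, 5.60 and 5.48 in Stat3Δhc, and overlaps again through array A.

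On the knockout Cd79a read 5.82, 5.99 and 6.13 in floxed and 5.30, 5.18 and 6.08 in deleted liver, where array C stood apart from its partners. The difference was -0.46 (adjusted p = 0.183), and without that array C it was -0.74 and called (0.0361). Pax5, the factor that fixes B cell identity, was wholly lower in Stat3Δhc Mdr2-/- than in Stat3Fl/FlMdr2-/- (-0.25, adjusted p = 0.141). Blk, a B cell kinase, and Cd22, an inhibitory receptor, overlapped there (-0.21 and -0.14). With Mdr2 loss in Stat3Δhc liver the 5 B cell genes had a median of 0.05, against 0.30 for the 5 T cell genes and 0.36 for the 4 NK and cytotoxic genes, and the difference between these roles was not tested. Ms4a1, which encodes CD20, was too dim to test, and in a fit with no filter it was lower with Mdr2 loss in Stat3Δhc liver (-0.49, adjusted p = 0.0201) at signals of 5.18, 5.05 and 5.46 against 4.61, 4.78 and 4.82.

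Wider lists of the same cell types gave calls in some comparisons and not in others. With Stat3 deletion alone, none of 9 further T cell, 20 further B cell, 5 further NK and 13 lymphoid cytokine and chemokine genes tested was called by limma, where 2.58% of all genes were. Their medians were -0.12, -0.22, -0.05 and -0.21, with 8 of 9, 19 of 20, 3 of 5 and 10 of 13 below 0. With Stat3 deletion on the knockout 4 of the 20 further B cell genes fell, against 3.90% of all genes: the transcription factor genes Bach2 (-0.79, adjusted p = 0.0101), Myb (-0.58, 0.0175) and Spib (-0.57, 0.0434), and the adaptor gene Blnk (-0.61, 0.00254), which links the B cell receptor to its signals. Spib and Blnk averaged 5.42 and 5.56 in Stat3Δhc Mdr2-/-, within the range of the olfactory receptor guide on those arrays (5.43 to 5.78) or below it. Their low side is thus near background. Bach2 and Myb are also used by other blood cells. Blnk rose with Mdr2 loss in floxed liver (0.52, 0.0014), where the sex pattern differs as well. With Mdr2 loss in Stat3Δhc liver, where 6.90% of all genes rose and 10.5% fell, 1 of 20 further B cell genes rose (Lax1, 0.37) and 2 fell (Bank1, -0.50, and Rasgrp3, -0.46), while 2 of 9 T cell genes (Ccr7, 0.38, and Cd8b1, 0.31) and 2 of 5 NK genes (Itga2, 0.55, and Ctsw, 0.37) rose. In Stat3Δhc, Lax1, Ccr7, Cd8b1 and Ctsw averaged 5.351, 5.403, 5.375 and 5.374. These means lie within the range of the olfactory receptor guide on those arrays (5.18 to 5.48), so their low side is near background. Itga2 is also expressed outside NK cells.

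Of 13 lymphoid cytokine and chemokine genes tested, 5 rose and 2 fell with Mdr2 loss in Stat3Δhc liver, against 6.90% and 10.5% of all genes. Among them, Cxcl10 (2.29 ± 0.39 SE, 4.90-fold, adjusted p = 0.00204) and Cxcl9 (1.65 ± 0.29 SE, 3.14-fold, 0.00255), both interferon-induced ligands for activated T and NK cells, rose. Cxcl16, Cxcr4 and Flt3 also rose in that comparison (0.85, 0.77 and 0.49), and Cxcl12, which retains B cell precursors, and Il15, which sustains NK cells, fell by 0.80 and 0.68. With Mdr2 loss in floxed liver Cxcl16 (1.09) and Cxcr4 (0.65) rose and Cxcl12 fell by 0.66. With Stat3 deletion on the knockout 1 of the 13 genes passed, against 5.77% of all genes, and it was Cxcl9 (1.34, 2.54-fold, adjusted p = 0.0209).

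Markers of other cells changed beside the members. With Mdr2 loss in Stat3Δhc liver 5 of 9 dendritic cell genes rose, against 6.90% of all genes, among them Itgax (0.81), Siglech (0.63), Cd209a (0.55) and Irf8 (0.49). In the same list 1 fell (Bst2, -0.53), while of 13 macrophage genes 1 rose (Cd68, 0.38). Itgax averaged 5.36 in Stat3Δhc, within the range of the olfactory receptor guide on those arrays. With Mdr2 loss in floxed liver 2 of the 9 dendritic genes rose, Ly6d (0.99) and Siglech (0.44), against 7.12% of all genes. In each background 8 of the 9 differences lay above 0. Of 9 erythroid genes 3 fell with Mdr2 loss in each background, Alas2, Slc4a1 and Car2 in floxed liver (5.65% of all genes fell) and Alas2, Slc4a1 and Klf1 in Stat3Δhc liver (10.5%). With Stat3 deletion on the knockout 2 of 13 macrophage genes fell, against 3.90% of all genes, Adgre1 (-0.56) and Csf1r (-0.54). The 16 skeletal muscle genes averaged 8.37 to 9.22 in the 6 arrays with intact Mdr2 and 5.51 to 5.84 in the 6 knockout arrays, and 15 of 16 fell with Mdr2 loss in Stat3Δhc liver. The pancreas genes averaged 5.78 to 9.76 and 5.45 to 5.86 in these arrays. The part of these cells and tissues in the lymphoid differences with Mdr2 loss was not tested.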

How the data were processed

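Whole liver RNA of 12 mouse samples was measured on Affymetrix arrays. The deposited values are log2 signals made by the authors with RMA, per the submitters' processing notes; the version is not given in the sources used here. Of 35556 probe sets, 21789 name 1 gene. Each gene was taken by its probe set of highest mean. Genes above the array's 40th percentile over all probe sets in at least 3 arrays were tested with limma 3.58.1 (R 4.3.3; lmFit and eBayes, all 12 arrays, 8 residual degrees of freedom) in 5 comparisons, with 2-sided p-values adjusted by Benjamini-Hochberg at 0.05. The members and lists were chosen with earlier results of these data known. Values per array are given for each called member and for 1 or 2 others per role, and of the wider lists up to 4 called genes per comparison; the fifth called chemokine and dendritic gene (Flt3) was added after its value was seen. The number of arrays limits precision: on simulated data for Mdr2 loss in Stat3Δhc liver, 64% of genes changed 1.5-fold and 88% of those changed 2-fold were recovered among 13977. The simulation changed fewer genes than were called in the data and drew noise separately for each gene. Members had a larger standard error than all genes (median 0.137 against 0.11), so these shares need not hold for them. The alternatives were other filters, probe set averaging, cyclic loess, trend and robust eBayes, only the groups compared, a block for the letter, source name groups, a covariate for the sex pattern and leaving out each array.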

Additional observations from a re-analysis of the deposited data

How the results depend on the processing

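Counts of called members moved as follows. With a 60th percentile filter, which left 4 members to test, the counts were 0 for Stat3 deletion on the knockout, 0 for Mdr2 loss in floxed liver and 1 (Coro1a) in Stat3Δhc liver. Cyclic loess gave 2 for Stat3 deletion on the knockout. A fit of only the groups compared gave 3 for Mdr2 loss in Stat3Δhc liver. The covariate for sex pattern is estimated only from array A of Stat3Δhc Mdr2-/- against its arrays B and C. Calls lost under it therefore cannot show whether sex pattern accounts for them. The Ebf1 difference for Stat3 deletion on the knockout went from -0.98 ± 0.25 (SE) to -1.30 ± 0.33. That of Il7r for Mdr2 loss in floxed liver went from 0.51 ± 0.14 (SE) to 0.70 ± 0.26. Neither gene was called with the covariate. A filter percentile over gene values, added after the data were seen, gave 0 for Mdr2 loss in floxed liver, since Il7r was not tested there. Groups by source name, which exchange the 2 knockout groups, gave 4 for the difference of the Stat3 effects (Igll1, Ebf1, Cd79b and Il7r) and turned Ebf1 to 0.98. Leaving out each array gave 0 to 3 for Stat3 deletion alone, 0 to 2 on the knockout, 0 to 0 for the difference, 0 to 1 for Mdr2 loss in floxed liver and 2 to 6 in Stat3Δhc liver.

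Taken over all genotypes, the letters A to C showed no steady pairing of the arrays. Deviations of same-letter arrays correlated at -0.41 to 0.37, above 0.1 in 4 of 18 pairs, and an array correlated best with its own letter in 10 of 36 cases. Between Stat3Fl/Fl and Stat3Δhc the values were 0.27, 0.073 and 0.37 for A, B and C, so pairing of these 2 groups is not excluded. With the letter as a replicate block the members called were 0, 2, 0, 1 and 4, in the order above; Il7r was added for Stat3 deletion on the knockout and Prf1 (adjusted p = 0.0571) was lost for Mdr2 loss in Stat3Δhc liver. Calls over all genes went from 361 to 237, 806 to 473, 10 to 3, 1785 to 1453 and 2431 to 1865.

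Of 32 members, 19 lay below the 40th percentile of gene values on at least 7 arrays; recovery at that signal level was not simulated.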
